A study of Homo sapiens with 6 samples.

Results

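The clusters described here are the hnRNP A1 crosslink clusters that the authors' annotation placed at promoters and transcription starts. All clusters of the 6 deposited lists whose annotation was of that class were taken, which gave 1647 of 16269 clusters. The libraries came from photoactivatable ribonucleoside-enhanced crosslinking and immunoprecipitation (PAR-CLIP). In this method a thiouridine is built into new RNA, ultraviolet light joins it to bound protein, and the joined sites are read from T-to-C changes in the sequenced RNA.

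All 3 groups were HEK293T cells, a human embryonic kidney line, transiently transfected with a myc-tagged hnRNP A1, fed 4-thiouridine, crosslinked and precipitated with an antibody against myc. A1dm was the band of the double mutant R75D/R88D, which the labels call monomeric. A1-HMW was the slower band of the WT protein, which the labels call dimeric, and A1 was the faster WT band, which the labels call monomeric. Each group had 2 libraries from independent experiments, so that p-values measured the spread between libraries. The cells also carried their own hnRNP A1, no library from untransfected cells was analysed here, and a cluster list holds no expression values against which the cell type could be checked.

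A transcription start is the place where an RNA polymerase begins an RNA, and the promoter is the DNA around it. DNA upstream of a start is copied only where another transcript covers it, and many genes have several starts, some of them deep inside the longest transcript. hnRNP A1 is an abundant nuclear RNA-binding protein that takes part in splicing, in RNA export and in the processing of small RNAs, so its clusters lie in RNA and not in promoter DNA. The class used here ran from 1000 nt upstream to 100 nt downstream of any annotated transcript start, on either strand of the gene.

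The sequences of the regions that recurred in 5 of the 6 libraries are shown first. Each is the hg19 sequence of 1 cluster of the region on the cluster's strand, with the longest run of purines (A or G) in capitals. Of the 9 regions that recurred this often, 8 are shown.
CARS (chr11:3061289-3061311, minus strand): gactGAGGAGGAGAAGGGGGGGt
MAP3K12 (chr12:53876303-53876325, plus strand): ggatAAGGAAAAAGGGAAAGAGc
HERC1 (chr15:63970289-63970312, minus strand): gaaatGAGAGAGGAGAAGGAGAGc
GGPS1 (chr1:235492166-235492192, plus strand): GAGGAAAGAAAGAAAGGAGAGtgagga
MARS (chr12:57906446-57906468, plus strand): GAAAGAGGAAAGAAGGAAGAGtt
WDR45 (chrX:48934004-48934028, minus strand): gagatGAGGAAAGAAAGGAAGGGGc
TRIM41 (chr5:180651470-180651491, plus strand): ggaggaggttGAGGAAGAGGAt
DNAH2 (chr17:7620560-7620576, minus strand): tagttcggattGGGGtc
In 6 of the 8 the run was 12 purines or longer. The TRIM41 cluster had a run of 11, and the DNAH2 cluster had a run of only 4. Every region in 5 libraries was called in an A1 library, and 97.3 and 95.1% of A1 promoter clusters held a run of 12 purines. In A1dm 51.5 and 47.5% did, so the sequences shown do not stand for the A1dm clusters.

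A second set, chosen after the values were seen, is shown because it looked different. These clusters lay on the strand of noncoding RNA genes and came from A1dm libraries. RPPH1 is the RNA of RNase P, which trims transfer RNA precursors. RNU11 and RNU12 are the U11 and U12 small nuclear RNAs of the minor spliceosome, RNU5B-1 is a U5 small nuclear RNA, and GAS5 is a noncoding RNA that hosts small nucleolar RNAs.
RPPH1 (chr14:20811381-20811400, minus strand): gactgggcAGGAGAtgccgt
RNU11 (chr1:28975197-28975208, plus strand): tAAttttttggt
RNU12 (chr22:43011326-43011346, plus strand): ttttgagcgggtAAAGGtcgc
RNU5B-1 (chr15:65597096-65597119, plus strand): aagctaattttttGAGGccttgtt
GAS5 (chr1:173833971-173833991, minus strand): gtctttcgctcctatctGAtg
These 5 had short purine runs. The A1dm clusters of such genes were not all of this kind, since that of MALAT1 in A1dm replicate 1 held a run of 13. Short runs were also not particular to A1dm. The A1 clusters at such genes had runs of 9 in NEAT1, 10 in MALAT1 and 9 in RPPH1.

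The promoter class made up a larger share of the A1dm clusters than of those of the WT bands. It held 33 of 232 clusters in A1dm replicate 1 (14.2%, 95% Wilson interval 10.3 to 19.3) and 101 of 596 in replicate 2 (16.9%, 14.1 to 20.2). In A1-HMW it held 74 of 671 (11.0%, 8.88 to 13.6) and 97 of 865 (11.2%, 9.28 to 13.5), and in A1 it held 559 of 5805 (9.63%, 8.90 to 10.4) and 783 of 8100 (9.67%, 9.04 to 10.3). The groups did not overlap, and both A1dm libraries lay above all 4 WT libraries. The mean share was 15.6% ± 1.92 in A1dm, 11.1% ± 0.131 in A1-HMW and 9.65% ± 0.0262 in A1 (SD, n = 2 each). The difference was 5.94 percentage points for A1dm against A1, 1.47 for A1-HMW against A1 and 4.46 for A1dm against A1-HMW. Each had p = 0.333 in a two-sided exact permutation test, the smallest p that 2 libraries against 2 allow, so none could pass the threshold of 0.05. The lists held no read numbers, the depth was unknown, and A1dm had the fewest clusters. The part of depth in these shares was not tested. The order was not particular to the promoter class. Clusters annotated at transcript ends were 14.2 and 13.4% in A1dm, 11.3 and 9.71% in A1-HMW, and 9.27 and 8.88% in A1, and those annotated as exon 10.8 and 10.9% in A1dm, 8.79 and 6.59% in A1-HMW, and 6.08 and 5.36% in A1. Intronic clusters ran the other way, with 47.0 and 43.3% in A1dm, 58.6 and 58.6% in A1-HMW, and 60.6 and 59.9% in A1.

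**Figure D1:**
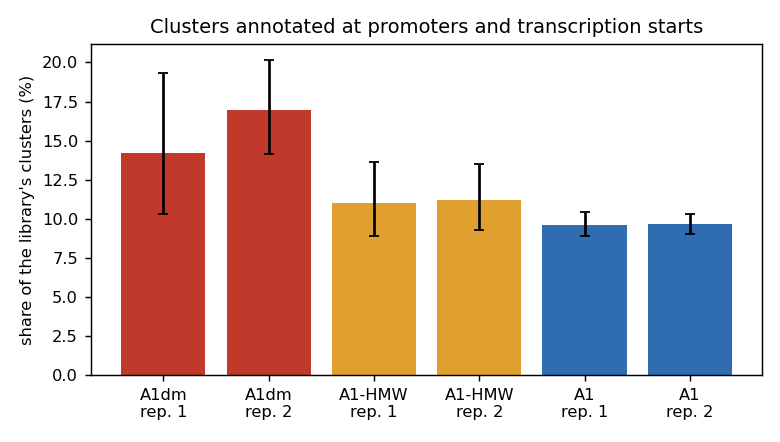
Share of each library's clusters that were annotated at promoters and transcription starts, in percent, with 95% Wilson intervals that cover counting error only. The A1dm libraries stand at 14.2 and 16.9%, the A1-HMW libraries at 11.0 and 11.2% and the A1 libraries at 9.63 and 9.67%.

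Most promoter clusters were upstream of the listed start, as most of the window is. The listed distance runs from the nearest start to the centre of the cluster and is below 0 upstream. Upstream positions make up 90.9% of the window. Downstream clusters were 11 of 33 (33.3%) and 37 of 101 (36.6%) in A1dm, 19 of 74 (25.7%) and 28 of 97 (28.9%) in A1-HMW, and 157 of 559 (28.1%) and 175 of 783 (22.3%) in A1. The mean was 35.0% ± 2.33 in A1dm, 27.3% ± 2.26 in A1-HMW and 25.2% ± 4.06 in A1 (SD, n = 2 each). A1dm lay above A1 by 9.77 points and above A1-HMW by 7.71 points without overlap (p = 0.333 each, exact permutation test). A1-HMW and A1 overlapped, with a difference of 2.05 points (exact permutation p = 0.667).

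The median distance was -105 and -111 nt in A1dm, -207 and -182 nt in A1-HMW, and -185 and -246 nt in A1. The first 100 nt downstream of the start held 27.3 and 21.8% of the A1dm promoter clusters, 16.2 and 12.4% of those of A1-HMW, and 14.7 and 10.9% of those of A1. Positions over 500 nt upstream held 15.2 and 16.8% in A1dm, 27.0 and 23.7% in A1-HMW, and 27.2 and 31.9% in A1. A1dm clusters thus sat closer to the listed start in both libraries. Of the downstream clusters counted above, 17 of A1dm, 23 of A1-HMW and 165 of A1 had a listed distance over 100 nt, outside the window. The listed distance goes to the nearest start, which was that of the annotated transcript for only 70.0% of the promoter clusters.

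**Figure D2:**
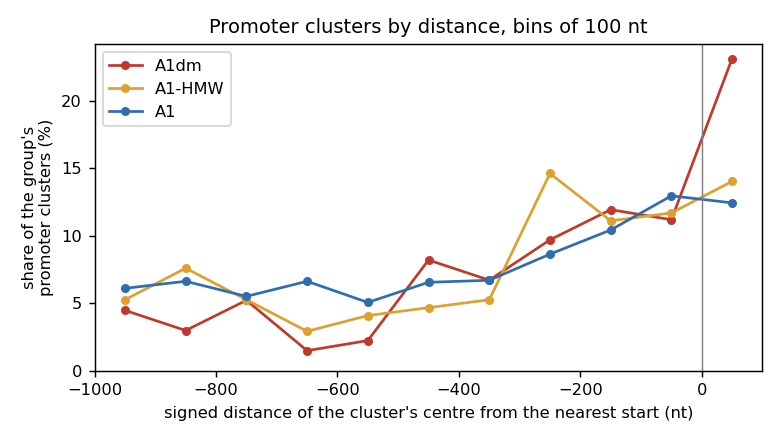
Share of each group's promoter clusters, with both libraries pooled, in bins of 100 nt of signed distance between the nearest start and the cluster's centre; clusters beyond 100 nt downstream are not drawn. The bin just downstream of the start holds 23.1% of the A1dm clusters, 14.0% of the A1-HMW clusters and 12.4% of the A1 clusters.

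Most members lay away from the canonical start of their listed gene. Of the clusters whose listed gene has a canonical transcript, the one that the GENCODE annotation puts forward for the gene, only 11 of 32 (34.4%) and 15 of 85 (17.6%) in A1dm lay within the same window around that transcript's start. In A1-HMW these were 15 of 69 (21.7%) and 13 of 86 (15.1%), and in A1 they were 97 of 511 (19.0%) and 155 of 726 (21.3%). The groups overlapped. Clusters on the gene's strand and over 1000 nt into the gene from the canonical start were 40.6 and 49.4% in A1dm, 52.2 and 51.2% in A1-HMW, and 53.6 and 48.8% in A1. These were clusters near the starts of other annotated transcripts, and "promoter cluster" below means only the annotated class. Which starts the cells used was not tested.

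Named regions show how far apart the listed and the canonical start could be. The HERC1 cluster lay 114 nt upstream of a listed start but 155848 nt downstream of the canonical start, in coding sequence. HERC1 is a very large ubiquitin ligase. The cluster in LARP1, a protein that binds the ends of mRNAs for the translation machinery, lay 39 nt upstream of a listed start and 37317 nt into the gene, also in coding sequence. The cluster in PRRC2C was 791 nt upstream of the listed start and 55509 nt past the canonical one. Of the 9 regions in 5 libraries, only that of DNAH2 fell in the window of the canonical start, at -492 nt and on the other strand. The region in GGPS1, which makes geranylgeranyl diphosphate for protein lipidation, lay 296 nt downstream of the canonical start, in an intron.

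Most promoter clusters lay on the strand of the listed gene. This share was 29 of 33 (87.9%) and 79 of 98 (80.6%) in A1dm, 56 of 74 (75.7%) and 70 of 95 (73.7%) in A1-HMW, and 413 of 543 (76.1%) and 556 of 769 (72.3%) in A1, among clusters whose gene could be matched. The mean was 84.2% ± 5.14 in A1dm, 74.7% ± 1.41 in A1-HMW and 74.2% ± 2.66 in A1 (SD, n = 2 each). A1dm lay above A1 by 10.1 points and above A1-HMW by 9.57 points (p = 0.333 each, exact permutation test). Among downstream clusters only, these differences were 5.65 points (exact permutation p = 0.333) and 2.82 points (exact permutation p = 1), and without A1dm replicate 1 they were 6.43 and 5.93 points.

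On the gene's strand, A1-HMW and A1 overlapped with a difference of 0.4996 points (exact permutation p = 1). For all other clusters the same share was 81.1 and 74.8% in A1dm, 76.3 and 73.7% in A1-HMW, and 73.5 and 70.6% in A1. Promoter clusters minus other clusters averaged 2.69 points over the 6 libraries, with 4 libraries higher and 2 lower (exact permutation p = 0.125, sign changes over libraries).

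Exons held about as many A1dm promoter clusters as everything else together. On the gene's strand and in an exon of the listed gene lay 17 of 33 (51.5%) and 48 of 98 (49.0%) in A1dm, 25 of 74 (33.8%) and 27 of 95 (28.4%) in A1-HMW, and 143 of 543 (26.3%) and 176 of 769 (22.9%) in A1. No group overlapped another. The mean was 50.2% ± 1.79 in A1dm, 31.1% ± 3.79 in A1-HMW and 24.6% ± 2.44 in A1 (SD, n = 2 each). The differences were 25.6 points for A1dm against A1, 6.49 for A1-HMW against A1 and 19.1 for A1dm against A1-HMW, each with an exact permutation p of 0.333. This measure was added after the data had been seen. Introns on the gene's strand held 33.3 and 22.4% in A1dm, 35.1 and 41.1% in A1-HMW, and 40.0 and 38.4% in A1.

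Within the exonic clusters, coding sequence of the canonical transcript held 4 and 13 clusters in A1dm, 9 and 12 in A1-HMW, and 45 and 54 in A1. Its 5′ UTR held 4 and 5 in A1dm, 2 and 2 in A1-HMW, and 9 and 21 in A1. Exons used only by another transcript held 5 and 23 in A1dm, 13 and 12 in A1-HMW, and 84 and 96 in A1. Exons of noncoding canonical transcripts held 4 and 6 in A1dm, 1 and 1 in A1-HMW, and 4 and 4 in A1. A1dm thus had as many or more clusters of this last kind as A1, from far shorter lists. Most of those in A1dm replicate 2 were in RPPH1 alone, and the others were in RNU12 and MALAT1.

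**Figure D3:**
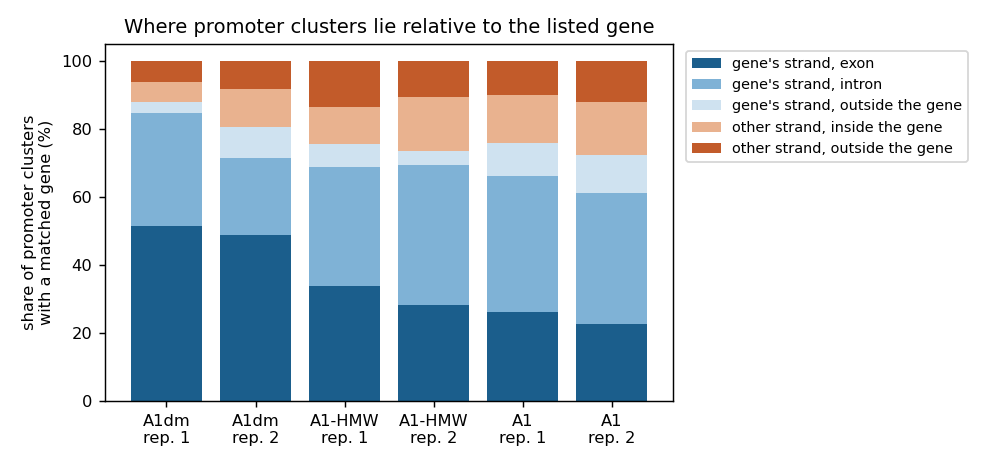
Share of each library's promoter clusters with a matched gene that lay on the strand of the listed gene (in an exon, in an intron or outside the gene) or on the other strand (inside or outside the gene), in percent. The exon part is 51.5 and 49.0% in A1dm, 33.8 and 28.4% in A1-HMW, and 26.3 and 22.9% in A1.

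Promoter clusters were in an exon of any gene on their own strand more often than other clusters in every library. The shares were 51.5% of promoter and 26.1% of other clusters in A1dm replicate 1 and 55.4 and 25.5% in replicate 2. They were 40.5% of promoter and 16.8% of other clusters in A1-HMW replicate 1 and 34.0 and 12.4% in replicate 2. In A1 they were 31.5% of promoter and 11.3% of other clusters in replicate 1 and 28.6 and 9.77% in replicate 2. A start is the first base of an exon, so the class and exons are not independent, and these values are a description with no test. How much of the difference came from the rule was not tested. Clusters in no gene on their own strand were 14.2% of promoter clusters and 22.2% of other clusters on average over the 6 libraries.

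Clusters on the strand opposite to the listed gene were a minority in every library. Inside the gene they were 2 and 11 in A1dm, 8 and 15 in A1-HMW, and 75 and 121 in A1. Outside it they were 2 and 8 in A1dm, 10 and 10 in A1-HMW, and 55 and 92 in A1. In another gene on their own strand lay 2 of 4 and 10 of 19 of these in A1dm, 9 of 18 and 14 of 25 in A1-HMW, and 59 of 130 and 111 of 213 in A1. Over all libraries 289 of 1126 promoter regions were on the opposite strand, and 86 of these 289 recurred in 2 or more libraries. Of all 1126 promoter regions 377 did (33.5%), and of regions of any annotation 32.8%. Recurrence on the opposite strand was thus not above that of the class.

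Opposite-strand regions with 4 or 5 libraries included those at MAP3K12, a kinase of neuronal stress signalling, DNAH2, a motor subunit of cilia, and PDZD2. At MAP3K12 the cluster lay 56 nt downstream of a listed start, and GENCODE held no gene on the cluster's own strand. At PDZD2 the cluster was called in both A1-HMW and both A1 libraries and in no A1dm library, again with no gene on its strand. The DNAH2 region lay 102 nt upstream of the start, and was called in both A1dm libraries, both A1-HMW libraries and A1 replicate 1. It was the only region of the class found in both A1dm and both A1-HMW libraries.

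Some promoter clusters lay at the starts of small RNA genes. Starts of genes that the lists type as small nuclear, small nucleolar, ribosomal, micro or miscellaneous RNA were named for 1 and 13 promoter clusters in A1dm, 5 and 9 in A1-HMW, and 30 and 43 in A1. The cluster lay in the small RNA itself, on its strand, for 1 of 1 and 7 of 13 in A1dm, 1 of 5 and 2 of 9 in A1-HMW, and 1 of 30 and 0 of 43 in A1 (a count of 0 allows a share of up to 6.98%). None of these clusters inside a small RNA held a run of 12 purines. In A1 the others were mostly in introns of a longer gene on the cluster's strand, 23 of 29 and 26 of 43.

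The small RNAs of these types hit in A1dm replicate 2 included RNU5B-1 and the small nucleolar RNAs SNORD33 and SNORD35A. The others were the microRNA genes MIR186, MIR3648 and MIR3687, and RN7SL272P, a pseudogene of the signal recognition particle RNA. The lists type RNU11 and RNU12 as long intergenic RNA and RPPH1 as antisense, so these counts and names leave them out. A1dm replicate 1 had RNU1-67P, a pseudogene of the U1 small nuclear RNA. One MIR3687 region was called in A1dm replicate 2 and A1-HMW replicate 2. In the WT bands the names were RNY4P2, MIR3687 and RNU5E-6P in A1-HMW, and SNORA81 in A1. Pseudogenes share sequence with their parent RNAs, so the copy from which the RNA came is uncertain. For all of these genes, microRNA genes included, whether the RNA was the small RNA or a longer transcript across it was not tested.

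Y RNAs, small RNAs of the Ro particle whose pseudogenes are scattered through the genome, were the listed name of 14 regions on 10 chromosomes, more than any other name. A region opposite to a Y RNA lay in an intron of MED13, a subunit of the Mediator kinase module, and was called in 4 libraries, namely A1dm replicate 2, A1-HMW replicate 2 and both A1 libraries. It held a run of 17 purines. SNORA6, a small nucleolar RNA, was the listed name of a region in 4 libraries that lay 31 nt upstream of it, in an exon of RPSA, a ribosomal protein gene.

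RPPH1 was the name with the second most regions. The lists placed 5 regions in it, 4 of them from A1dm and 1 from A1 replicate 2, all on its strand. The region at 165 nt downstream of the start was called in both A1dm libraries and in no other library. Regions at 28, 69 and 278 nt were called in A1dm replicate 2 only, and the region at 7 nt in A1 replicate 2 only. The one A1 cluster was agggcGGAGGGAAGctcatc (chr14:20811549-20811568, minus strand), with a run of 9 purines. The annotation used for the sequence positions holds RPPH1 only under its Ensembl identifier, through which it was matched.

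Of the list of 40 nuclear long noncoding and structural RNAs, 7 genes had a promoter cluster (17.5%), where 0.515% of all genes of the annotation that do not code for protein did. They were RPPH1, GAS5, MALAT1, NEAT1, RNU11, RNU12 and RNU5B-1. By library 3 and 5 of these genes had one in A1dm, 0 and 0 in A1-HMW, and 1 and 2 in A1. Over all genes that do not code for protein these numbers were 6 and 24 in A1dm, 17 and 23 in A1-HMW, and 103 and 154 in A1. MALAT1, a nuclear speckle RNA, had 3 regions of 1 library each (A1dm replicate 1, A1dm replicate 2 and A1 replicate 2), all inside its exon and at -779 to -280 nt from a listed internal start. NEAT1, the RNA scaffold of paraspeckles, had 1 cluster, in A1 replicate 1, at 7 nt downstream of the start.

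The other lists hold protein-coding genes. Of all 20175 such genes of the annotation 3.94% had a promoter cluster, with 27 and 70 genes in A1dm, 57 and 70 in A1-HMW, and 413 and 572 in A1. Chromatin remodelers had 12 of 44 genes with a promoter cluster (27.3%). By library these were 0 and 0 in A1dm, 1 and 0 in A1-HMW, and 4 and 10 in A1. CHD9, a chromodomain helicase, had a cluster in coding sequence in A1-HMW replicate 1 and both A1 libraries, 61 nt upstream of a listed start. CHD8 was called in both A1 libraries, in coding sequence. Spliceosome and SR proteins had 7 of 61 genes (11.5%), with SNRPE, a core protein of the spliceosomal small nuclear particles, in A1-HMW replicate 2 and both A1 libraries, and the tri-snRNP protein PRPF31 in both A1 libraries. The general transcription machinery had 3 of 76 genes (3.95%). POLR2A, the largest subunit of RNA polymerase II, was called in an intron in A1-HMW replicate 2 and both A1 libraries, and the elongation factor SUPT6H in both A1-HMW libraries and A1 replicate 2. Translation factors had 4 of 48 genes (8.33%), EEF1G in A1dm replicate 2 and the other 3 in A1. All these counts go by the listed name. The EEF1G cluster lay outside EEF1G, in an exon of TUT1, and the EIF3H clusters lay on the other strand, in an intron of UTP23. The clusters at ARID1A, SMARCD2 and MED15 were also on the strand opposite to the listed gene, and that at PRPF4 lay outside its gene.

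hnRNPs and related RNA-binding proteins had 5 of 42 genes (11.9%). RALY was called in both A1 libraries and SFPQ in A1-HMW replicate 1 and A1 replicate 2, both in introns, while HNRNPH2 and SYNCRIP were called in A1 replicate 2 only. HNRNPA1 itself had 1 cluster, in A1dm replicate 2, in its 3′ UTR and 549 nt upstream of a listed start. It is the gene of the transfected protein, and whether the RNA was of the cells' own gene or of the plasmid was not tested. Gene length and expression were not taken into account in any of these list counts. All 6 lists, that of the noncoding RNAs included, were chosen with earlier results of these data known. Their shares beside those of all genes are therefore no test of enrichment.

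Promoter clusters held a lower share of purines than the other clusters in each library. The purine share of bases was 76.6% in promoter and 81.3% in other clusters of A1dm replicate 1, and 73.4 and 78.5% in replicate 2. It was 83.3% in promoter and 87.5% in other clusters of A1-HMW replicate 1, and 87.3 and 87.8% in replicate 2. In A1 it was 90.3% in promoter and 90.7% in other clusters of replicate 1, and 90.0 and 90.6% in replicate 2. Promoter minus other clusters averaged -2.57 points ± 2.28 (SD, n = 6) and was lower in 6 of 6 libraries. The two-sided exact permutation test by sign changes gave p = 0.0312, the smallest that 6 libraries allow, and 0.0625 after Benjamini-Hochberg adjustment over the 4 measures compared in this way, so it did not pass. A1 and A1-HMW are bands of the WT protein, and their libraries may have come from the same precipitates. The p then counts as independent libraries that share a source.

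Runs of 12 purines followed the same order. They were in 51.5% of promoter and 69.6% of other clusters of A1dm replicate 1, and in 47.5 and 60.2% in replicate 2. In A1-HMW they were in 74.3% of promoter and 85.7% of other clusters of replicate 1, and in 86.6 and 87.1% in replicate 2. In A1 they were in 97.3% of promoter and 98.2% of other clusters of replicate 1, and in 95.1 and 96.8% in replicate 2. The mean difference was -7.54 points ± 7.50, lower in 6 of 6 libraries (exact permutation p = 0.0312, adjusted 0.0625). Mean length differed by -0.347 nt (exact permutation p = 0.219, adjusted 0.292). The share of G and C, compared after the data had been seen, was higher by 2.77 points ± 2.09 in promoter clusters, in 6 of 6 libraries (exact permutation p = 0.0312, not adjusted). The word GAGGAA was in 9.09 and 16.8% of promoter clusters in A1dm, 31.1 and 33.0% in A1-HMW, and 36.5 and 34.0% in A1.

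Purine runs were more common in clusters that overlapped A1, which the overlap itself favoured. A cluster shares sequence with the A1 cluster it overlaps. Runs of 12 purines were in 97.3 and 95.1% of A1 promoter clusters and 98.2 and 96.8% of other A1 clusters. The counts below are therefore a description. Of the A1dm promoter clusters that overlapped an A1 cluster, 9 of 12 and 37 of 39 (94.9%) held a run of 12 purines, and of those that did not, 8 of 21 (38.1%) and 11 of 62 (17.7%) did. In A1-HMW the counts were 50 of 55 (90.9%) and 69 of 73 (94.5%) with an overlap, and 5 of 19 (26.3%) and 15 of 24 (62.5%) without. Other clusters of A1dm had 88.4 and 92.6% with an overlap and 38.4 and 31.4% without, so this split was not particular to the promoter class.

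Recurrence between replicates differed far more between groups than between promoter and other clusters. In the other replicate of the same group, 4 of 33 promoter clusters (12.1%) of A1dm replicate 1 were overlapped by 1 nt or more on the same strand, against 14.7% of all its clusters, and 4 of 101 (3.96%) of replicate 2, against 5.7%. In A1-HMW these were 24 of 74 (32.4%), against 20.7%, and 24 of 97 (24.7%), against 16.1%. In A1 they were 333 of 559 (59.6%), against 57.4%, and 332 of 783 (42.4%), against 41.1%. Promoter minus other clusters averaged 3.63 points ± 6.50 (SD, n = 6), with 4 libraries higher and 2 lower (exact permutation p = 0.312, adjusted 0.312). Overlap is mutual, so the 2 libraries of a group count largely the same shared clusters. The p treats them as independent, which they are not. With unknown depth, a cluster missing from a library was not shown to be absent from the RNA. The lists held 232 and 596 clusters in A1dm, 671 and 865 in A1-HMW, and 5805 and 8100 in A1. The length of the other list bounds how many clusters can recur, so these shares do not rank the groups by reproducibility.

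Overlap with either A1 library set A1dm and A1-HMW apart. It was found for 12 of 33 (36.4%) and 39 of 101 (38.6%) of the A1dm promoter clusters, where 58.6 and 45.1% of all A1dm clusters had it. It was found for 55 of 74 (74.3%) and 73 of 97 (75.3%) of the A1-HMW promoter clusters, where 70.5 and 70.2% of all A1-HMW clusters had it. Promoter clusters thus overlapped A1 less often than other clusters in both A1dm libraries (62.3 and 46.5% for the others) and more often in both A1-HMW libraries (70.0 and 69.5% for the others). The 4 libraries together gave a mean difference of -5.94 points (exact permutation p = 0.625), and the difference between the groups was not tested. Overlap with either A1-HMW library was found for 7 of 33 (21.2%, against 28.4% of all clusters) and 20 of 101 (19.8%, against 20%) of the A1dm promoter clusters.

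In the other direction, overlap with either A1dm library was found for 16 of 74 (21.6%, against 14.8% of all clusters) and 20 of 97 (20.6%, against 13.3%) of the A1-HMW promoter clusters. For the A1 promoter clusters it was 41 of 559 (7.33%, against 5.15%) and 44 of 783 (5.62%, against 4.12%). Overlap with either A1-HMW library was found for 87 of 559 (15.6%, against 13.2%) and 99 of 783 (12.6%, against 10.5%) of the A1 promoter clusters.

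**Figure D4:**
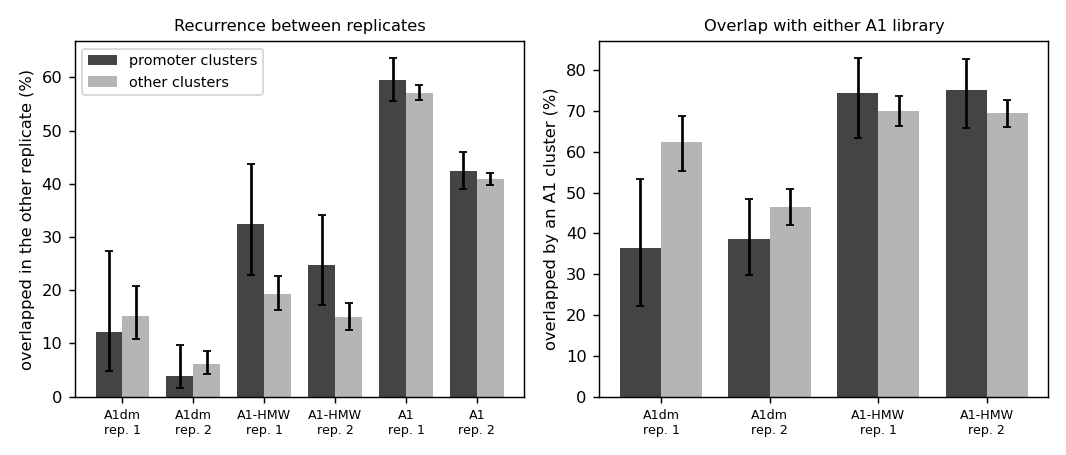
Left, share of promoter and of other clusters overlapped by a cluster of the other replicate of the same group, in percent. Right, share of A1dm and A1-HMW clusters overlapped by a cluster of either A1 library; bars give 95% Wilson intervals for counting error, and the A1dm promoter clusters stand at 36.4 and 38.6% against 62.3 and 46.5% of the other A1dm clusters.

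Merged over the libraries, the promoter clusters made 1126 regions with 1031 gene names. Of these regions 749 were in 1 library, 272 in 2, 75 in 3, 21 in 4, 9 in 5 and 0 in all 6. Regions in 2 or more libraries were 377 (33.5%), where 32.8% of regions of any annotation were, and regions in 3 or more were 105 (9.33%, against 7.34%). Regions in 5 were 0.799% of promoter regions and 0.403% of all regions. A1 alone accounted for 874 regions, A1dm alone for 76 and A1-HMW alone for 36, and 20 regions were in all 3 groups. The lists behind these counts held 232 and 596 clusters in A1dm, 671 and 865 in A1-HMW, and 5805 and 8100 in A1. The same counts were not made over regions of any annotation. They are therefore no measure of binding particular to a group.

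Both A1dm libraries shared only 4 regions, at DNAH2, IL11RA, AGBL5 and RPPH1. The IL11RA region, in the gene of the interleukin-11 receptor, was also in both A1 libraries and held a run of 14 purines. The AGBL5 region, in a gene for a tubulin-trimming enzyme, was also in A1-HMW replicate 1 and held a run of 6. Both A1-HMW libraries shared 24 regions and both A1 libraries 333, of which 235 were in A1 only.

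The regions in 5 libraries differed in which A1dm library called them. CARS, the cysteinyl synthetase, was called in A1dm replicate 1 and all 4 WT libraries, and MARS, the methionyl synthetase, in A1dm replicate 2 and all 4 WT libraries. Both lay in exons that the canonical transcript does not use. GGPS1, TRIM41, a ubiquitin ligase, and WDR45, an autophagy protein, had the pattern of MARS, while HERC1 had that of CARS. TRIM41 lay in coding sequence, and GGPS1 and WDR45 lay in introns.

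Regions in 4 libraries numbered 21. The clusters at RAB5A, a GTPase of early endosomes, and at HCFC1, a host cell factor in transcription, were in 5′ UTRs, 11 and 8 nt upstream of a listed start and 142 and 626 nt downstream of the canonical start. Both were called in both A1-HMW and both A1 libraries and in no A1dm library, and both are shown as sequence because they lay in 5′ UTRs, as did 1 further region with fewer libraries.
RAB5A (chr3:19988717-19988744, plus strand): AGAGGGAGGAGGAGGAGGAAGAAttagt
HCFC1 (chrX:153236632-153236656, minus strand): actGAGGAAGGGAGGAGAGAGAGGc
MAP2K1 (chr15:66679376-66679401, plus strand): ggttGAGAGAGAGAGAGGAAGGGAAt
The MAP2K1 cluster, in the 5′ UTR of the kinase MEK1 at 139 nt from the canonical start, was called in A1dm replicate 2 and both A1 libraries. Further 5′ UTR regions in both A1 libraries and no other were at ATG3, ASPHD1 and XPO1, at 49, 331 and 280 nt from the canonical start.

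LARP1, PIH1D1, HUWE1, LRIF1 and RBM10 were in 4 libraries that included A1dm replicate 2, and PRRC2C in 4 that included A1dm replicate 1. AKAP8L, SLC3A2, SNRNP40, SEC31B, CREB5 and HOXD11 had clusters in both A1-HMW and both A1 libraries and in no A1dm library. RBM10, a splicing regulator, HUWE1, a ubiquitin ligase, and HOXD11, a developmental transcription factor, had theirs in introns. KATNA1, the severing subunit of katanin, had regions in both A1 libraries only, 2 and 6 nt upstream of listed starts that lay 25601 and 45335 nt into the gene.

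**Figure D5:**
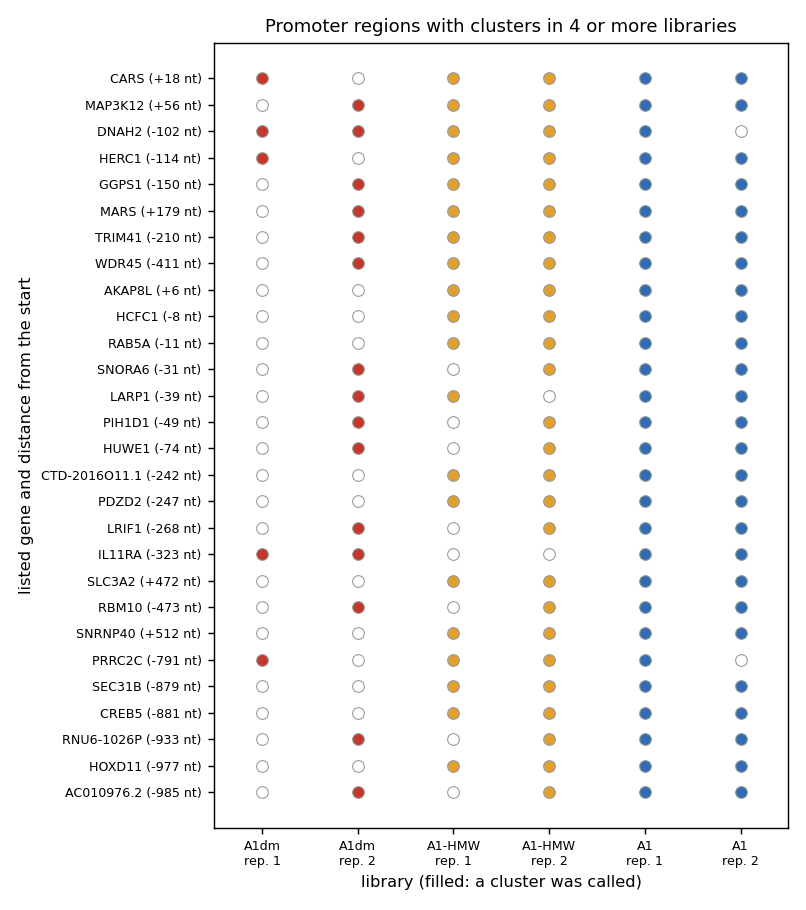
Promoter regions with clusters in 4 or more libraries, 28 of 30 drawn (those listed as Y_RNA are left out), labelled by the listed gene and its listed distance from the start in nt; a filled circle means that a cluster was called in that library. No region is filled in all 6 libraries, 8 are filled in 5, and only DNAH2 and IL11RA are filled in both A1dm libraries.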

How the data were processed

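PAR-CLIP clusters of 6 HEK293T libraries, 2 in each of 3 groups, were analysed as deposited. Per the paper's methods, the authors trimmed reads with BBduk, removed ribosomal RNA, mapped the rest with STAR, used wavClusteR for T-to-C changes and PARalyzer for peaks, and annotated with HOMER. The headers of the deposited lists name wavClusteR cluster files, 1 for each library. The submitters' processing notes name Bowtie and hg19, and the headers name Ensembl GRCh37 release 87. Other versions are not given in the sources used here. The deposited score was 0 in every line, so depth was unknown. The other deposited columns used were positions, distances and names.

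The listed start lay 1 nt above the start in the identifier in 100% of lines, and the identifier's was used. Genes were matched to GENCODE 44 lifted to the same build, 1349 clusters by name and 263 by identifier, with 35 unmatched. These 35 were left out of strand and exon shares. Clusters overlapping by 1 nt or more on the same strand were merged to regions across libraries. Purine runs were read from the reference. Wilson intervals (95%) cover counting error only. Groups were compared over libraries by exact permutation, and promoter with other clusters by exact sign changes over libraries, adjusted by Benjamini-Hochberg. Named regions were those with the most libraries, then the smallest distance, in all libraries and by group and strand, and the genes of 6 lists. RNU11, RNU12, RNU5B-1, GAS5, the small RNAs and the 5′ UTR regions were chosen after their values were seen. Exon and canonical-start shares, G and C, GAGGAA and the promoter-minus-other differences in strand and in overlap with A1 were added after the data had been seen. The members and lists were chosen with earlier results of these data known. The tests were tested on simulated data. Alternatives were other starts, windows, denominators, reference clusters, overlaps and run lengths, a replicate block, and leaving out each library. Python 3.11.15, numpy 2.4.6, pandas 2.3.3, pysam 0.24.0 and samtools 1.23.1 were used. One region in 5 libraries is not reported here.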

Additional observations from a re-analysis of the deposited data

Results flagged for a closer look

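Promoter clusters recurred in the other replicate less often than other clusters in both A1dm libraries and more often in both libraries of each WT band. Promoter minus other clusters averaged -2.53 points in A1dm and 1.94 points in A1, a difference of -4.47 points. Against A1-HMW, where the average was 11.5 points, the difference was -14.0 points. Every library of A1dm moved one way and every library of the other group the opposite way, which is why both are listed here. Overlap between replicates is mutual, so the 2 libraries of a group count largely the same shared clusters. Their agreement in sign was thus nearly fixed, and neither difference was tested. Only 4 promoter clusters of each A1dm library recurred.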

How the results depend on the processing

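No comparison between groups could pass the threshold, and none did under any alternative. Leaving out each library in turn gave ranges, in percentage points. For A1dm against A1 they were 4.58 to 7.30 for the promoter share, 6.90 to 12.6 for the downstream share, 6.43 to 13.7 for the gene's strand (5.93 to 13.2 against A1-HMW) and 23.9 to 27.4 for exons of the listed gene. A1-HMW against A1 turned for the downstream share (-0.815 to 4.92) and for the gene's strand (-1.38 to 2.38). The strand difference was also -0.292 with the strand of the start at the listed distance and -0.705 with upstream clusters only. Clusters at the canonical start turned in all 3 comparisons: -2.52 to 14.2 for A1dm against A1, -5.05 to 1.57 for A1-HMW against A1 and -0.781 to 15.9 for A1dm against A1-HMW. With the window cut at 250 nt upstream, the promoter share differed by 2.91 points for A1dm against A1-HMW.

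The labels do not tie the replicate numbers to shared experiments, although the paper describes 2 experiments and both WT bands may stem from the same precipitates. Deviations of same-numbered libraries correlated at 0.664 (A1dm and A1), 0.919 (A1-HMW and A1) and 0.441 (A1dm and A1-HMW). With the replicate block, the promoter share still differed by 5.94, 1.47 and 4.46 points, with p = 0.5 each by exact permutation, the smallest that 2 pairs allow, and the block changed no other call.

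For promoter against other clusters, leaving out a library gave 2.10 to 3.28 points for G and C, with an exact permutation p of 0.0625, the smallest that 5 libraries allow. The purine share ranged from -3.01 to -2.07 and the purine run from -8.95 to -5.43. Against exonic clusters the purine run was lower in 4 libraries and higher in 2 (exact permutation p = 0.125). It was lower in 5 and higher in 1 with runs of 15 purines (exact permutation p = 0.125) and with the listed start (exact permutation p = 0.0625). With runs of 10 purines, or against intronic clusters within 5000 nt, it was lower in 6 of 6. Overlap with A1 was 0.728 points without A1dm replicate 1, with a range from -9.83. Replicate recurrence differed by only 0.0821 points from that of exonic clusters. No cluster was annotated as 5′ UTR, so that reference held exons only. Unknown depth and 2 libraries a group limit all of these values.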
